A study of Mus musculus with 20 samples.

Results

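E1KD cells are NMuMG cells, epithelial cells of normal mouse mammary gland grown as a line, that carry an shRNA against hnRNP E1, the RNA-binding protein encoded by Pcbp1. E1KD cells with a further shRNA against the long noncoding RNA Platr18 (E1KD Platr18 KD) were compared with E1KD cells that carry a scrambled shRNA (E1KD SCR), with 2 libraries in each group. Both groups are silenced for hnRNP E1 and were grown in the same serum-containing medium, so the comparison holds no cell with normal hnRNP E1. Platr18 was silenced with 1 shRNA, delivered by lentivirus, so an effect on Platr18 and an effect of that shRNA on other RNAs cannot be told apart. The compared genes are the 14999, of 54986 in the deposited table, that reached 1 count per 1e6 reads (CPM) in at least 2 of these 4 libraries, and 10865 of them are protein-coding. Of the 14999 genes, 14325 reached 1 CPM in all 4 libraries, 264 in the E1KD SCR libraries alone and 135 in the E1KD Platr18 KD libraries alone.

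Long noncoding RNAs are transcripts without a coding sequence, many of which stay in the nucleus. Platr18, also named Lncenc1, belongs to a set of noncoding RNAs named for their expression in pluripotent embryonic stem cells. Loss of hnRNP E1 in epithelial cells is known to start an epithelial-mesenchymal transition (EMT), in which cells give up junctions and polarity and take up a mesenchymal program of matrix and cytoskeletal genes. The question of the comparison is which transcripts of E1KD cells depend on Platr18, with Sema4f, a membrane-bound semaphorin that guides axons, as the gene the study followed.

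In 97.8% to 98.5% of low CPM values a whole number of reads could be read off, within a tolerance of 0.1 read, which gives the depth, in units of 1e6 reads. It was 73.9 and 63.0 in E1KD SCR and 147.4 and 146.8 in E1KD Platr18 KD, so a gene near 0 was counted more deeply in the silenced cells. Mitochondrially encoded genes took 23.1% and 21.3% of the summed CPM in E1KD SCR and 18.9% and 18.8% in E1KD Platr18 KD. Of 21 markers of immune, endothelial, fat, nerve and blood cells, none reached 1 CPM in any of the 4 libraries, and their summed level was 2.02 and 2.37 CPM in E1KD SCR and 2.28 and 2.15 CPM in E1KD Platr18 KD. Of 6 epithelial markers, 5 reached 1 CPM (Cdh1, Krt7, Krt8, Krt18 and Krt19), and Epcam was under 3 reads in all 4 libraries. The summed level of these 6 was 2564 and 2827 CPM in E1KD SCR and 2220.4 and 2263 CPM in E1KD Platr18 KD, with Krt7, Krt8, Krt18 and Krt19 at lower and Cdh1 at higher CPM in both silenced libraries. The part of the depth and of the mitochondrial share in the results was not tested beyond the rescaled values given below.

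Platr18 (Lncenc1, ENSMUSG00000078952.9) is a long intergenic gene on the forward strand of chromosome 13, from 97434970 to 97497007 of GRCm38. It had 2.92 and 3.097 CPM in E1KD SCR and 0.136 and 0.170 CPM in E1KD Platr18 KD. Both silenced libraries lay below both scrambled ones, with -1.80 as the log2 fold change of CPM + 1 (standard error, SE, 0.0923, limma adjusted p = 6.9e-09). That scale is used for all fold changes here and understates the change of genes with few reads. Values written as a pair against a pair give both E1KD SCR libraries first and both E1KD Platr18 KD libraries second. NMuMG cells with an empty vector, sequenced in the same kind of library, held 3.69 and 3.06 CPM, so the scrambled cells were near that level and the silenced cells below it. The study reports that Platr18 rises after hnRNP E1 silencing, and these scrambled cells did not show that rise over the empty vector cells. The cause was not tested. Pcbp1 had 3.28 and 3.46 CPM in E1KD SCR and 3.04 and 2.92 CPM in E1KD Platr18 KD, beside 32.3 and 32.3 CPM with the empty vector. The log2 fold change of Pcbp1 was -0.13 (SE 0.0848, limma adjusted p = 0.328), so a difference in hnRNP E1 silencing was not detected between the groups.

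The promoter of Platr18 and those of Sema4f and of 3 genes that were higher after silencing are shown, because the motifs marked in them belong to the EMT and interferon gene groups described further on. They are RefSeq windows of GRCm38.p6, from 250 bases before to 50 bases after the start, in the direction of transcription. Capitals mark 2 motifs, read on both strands. They are CACCTG, the E-box bound by Snail and Zeb, repressors that act in EMT, and GAAANNGAA, the core of interferon response elements. The motifs do not overlap in these windows. The windows lie at chr13:97434720-97435019 (forward strand) for Platr18, chr6:82939720-82940019 (reverse strand) for Sema4f, chr3:89228806-89229105 (forward) for Muc1, chr1:83116516-83116815 (forward) for Ccl20 and chr19:29367188-29367487 (forward) for Cd274.
Lncenc1: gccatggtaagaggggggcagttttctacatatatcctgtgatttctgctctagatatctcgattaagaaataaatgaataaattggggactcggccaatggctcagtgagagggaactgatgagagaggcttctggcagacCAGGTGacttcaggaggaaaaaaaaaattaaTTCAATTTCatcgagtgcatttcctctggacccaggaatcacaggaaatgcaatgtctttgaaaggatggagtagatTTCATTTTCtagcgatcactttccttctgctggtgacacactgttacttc
Sema4f: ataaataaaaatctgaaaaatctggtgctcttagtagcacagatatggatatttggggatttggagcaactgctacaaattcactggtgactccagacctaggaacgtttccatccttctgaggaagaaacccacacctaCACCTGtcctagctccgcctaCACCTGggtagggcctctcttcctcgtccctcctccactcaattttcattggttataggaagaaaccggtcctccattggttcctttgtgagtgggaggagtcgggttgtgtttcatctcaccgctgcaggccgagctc
Muc1: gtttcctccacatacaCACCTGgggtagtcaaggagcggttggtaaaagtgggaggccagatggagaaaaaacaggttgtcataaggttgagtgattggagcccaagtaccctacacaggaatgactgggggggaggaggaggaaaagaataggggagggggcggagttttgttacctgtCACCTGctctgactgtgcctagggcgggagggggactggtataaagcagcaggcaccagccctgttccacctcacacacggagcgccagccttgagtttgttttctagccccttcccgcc
Ccl20: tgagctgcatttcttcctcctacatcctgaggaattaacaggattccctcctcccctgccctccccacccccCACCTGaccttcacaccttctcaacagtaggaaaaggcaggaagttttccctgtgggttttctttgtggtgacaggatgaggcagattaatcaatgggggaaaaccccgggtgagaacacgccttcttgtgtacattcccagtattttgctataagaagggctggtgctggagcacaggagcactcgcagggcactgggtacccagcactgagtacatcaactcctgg
Cd274: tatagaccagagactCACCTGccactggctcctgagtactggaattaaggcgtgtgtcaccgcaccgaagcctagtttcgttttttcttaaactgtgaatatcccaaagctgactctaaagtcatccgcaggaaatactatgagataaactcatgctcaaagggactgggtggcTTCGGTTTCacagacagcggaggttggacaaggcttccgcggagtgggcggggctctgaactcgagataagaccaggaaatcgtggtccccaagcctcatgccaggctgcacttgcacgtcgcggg
The window of Platr18 holds the E-box 1 time and the interferon core 2 times. Those of Sema4f and Muc1 hold the E-box 2 times each, and those of Ccl20 and Cd274 hold it 1 time, that of Cd274 beside 1 interferon core. Those of Ly6c1, Ly6c2 and Il11, which were called lower, hold neither and are not printed. For Ly6e, Ly6a, Gvin1, Lynx1 and Fn1, also called lower, no window was available, so their promoters were not read. Across the 8183 compared genes with a window, 19.8% hold the E-box and 8.18% the interferon core, and across all 27025 genes with a window 22.6% and 9.76%. Among the genes called higher after silencing (defined below), 22 of the 61 with a window hold the E-box (36.1%) and 6 the interferon core. Among those called lower, 27 of 112 hold the E-box (24.1%) and 9 the interferon core (8.04%). These shares describe letters in a short window and were not tested.

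Genes were called where the unadjusted p was below 0.001 and the log2 fold change was 1 or more in size, and this called 252 of the 14999 genes, or 1.68%. Of these, 83 were higher in E1KD Platr18 KD (0.553%) and 169 were lower (1.13%), and the largest adjusted p among them was 0.00334 from limma. The decreases were larger than the increases: 34 genes were lower by at least 2 on the log2 scale, and 5 were higher by as much. Duplicates lay close together, since the libraries of the groups did not overlap for 73.6% of all compared genes. A gap between the groups therefore says little by itself, and if the duplicates are technical, which the labels leave unsaid, the p-values measure the spread of library preparation only. At an adjusted p under 0.05 with no limit on the fold change, 3050 genes passed (20.3%), 1390 of them higher (9.27%) and 1660 lower (11.1%). Genes of low level weighed on the counts, as 96 of the 169 lower genes were under 1 CPM in both silenced libraries, and over the 14325 genes with at least 1 CPM in all 4 libraries 62 were called higher and 67 lower. Rescaled to equal sums of protein-coding nuclear genes, which takes the mitochondrial share out of the scale, 86 were called higher and 168 lower. The split moved more with the other rescalings. With equal sums of all genes 101 were called higher and 161 lower, and by median-of-ratios 92 higher and 163 lower.

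**Figure D1:**
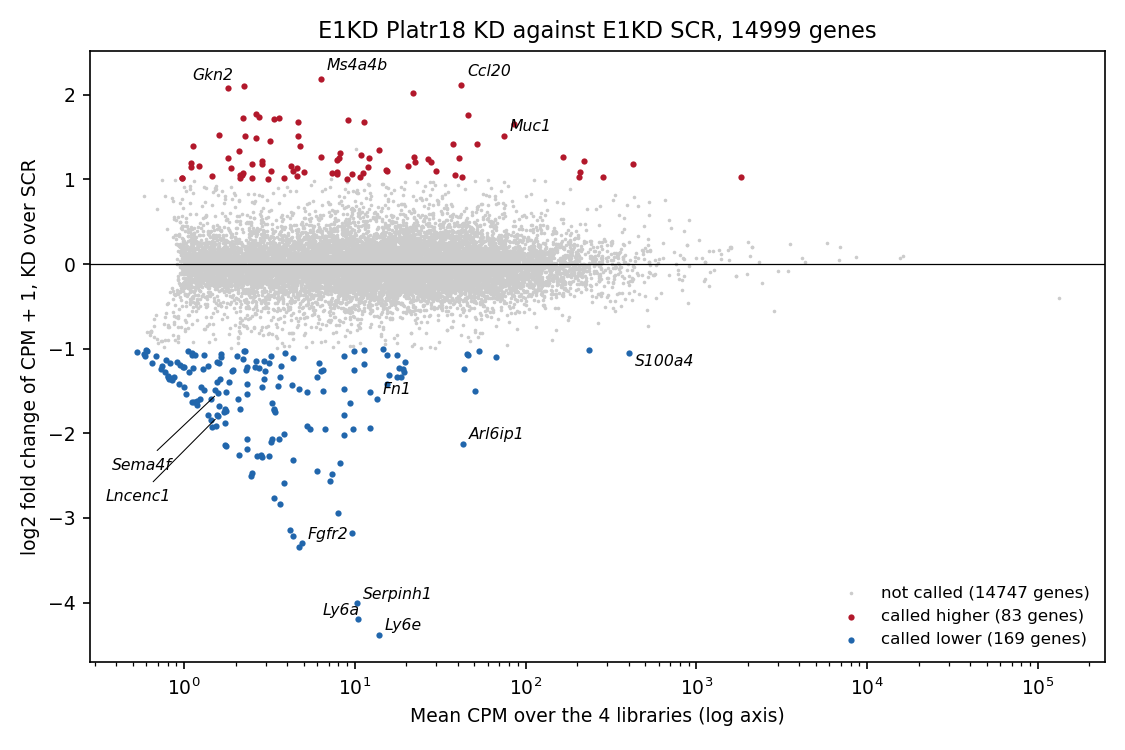
Log2 fold change of CPM + 1 between E1KD Platr18 KD and E1KD SCR against the mean CPM over the 4 libraries (log axis), with 1 point for each of 14999 genes. The 83 genes called higher are red and the 169 called lower are blue; the decreases reach below -4 at Ly6e, Ly6a and Serpinh1, and the increases end near 2.

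The largest decreases on the log2 scale were those of Ly6e and Ly6a, of the Ly6 family. Its members are small proteins held on the cell surface by a lipid anchor, several of which mark stem cells or are induced by interferon. Of 7 measured genes of the Ly6 and uPAR list, 5 were called lower and none higher, and all 5 lie on chromosome 15, where the 6 members measured there span 74714839 to 75111970. The 5 entered the comparison through the E1KD SCR libraries in which they were high, so the count is fixed in part by the filter, and the 1 member at 1 CPM in all 4 libraries was not called. The same limit holds for other lists, and the count over members at 1 CPM in all 4 libraries is given beside the larger ones. The called members of the interferon-stimulated, semaphorin, growth factor, YAP/TAZ and pluripotency lists, and Cadm2 of the neurotrophic list, were under 1 CPM in at least 1 library. Ly6e (ENSMUSG00000022587.14), an interferon-induced member, had 26.9 and 27.6 CPM in E1KD SCR and 0.373 and 0.341 CPM in E1KD Platr18 KD. The scrambled cells were high in both libraries and the silenced cells near 0.178 and 0.174 CPM, the values with the empty vector. The log2 fold change was -4.38 (SE 0.0947, limma adjusted p = 1.5e-12). Ly6a, the stem cell antigen Sca-1, had 21.8 and 19.5 CPM in the scrambled and 0.149 and 0.204 CPM in the silenced libraries, a log2 fold change of -4.20 (SE 0.104, limma adjusted p = 4.8e-12). Ly6c1 had 8.26 and 8.21 against 0.0476 and 0.0478 CPM, and Ly6c2 1.69 and 1.54 against 0.0205 and 0.0137 CPM, which in the silenced libraries is about 3 reads or fewer. They fell by 3.14 and 1.36 on the log2 scale. Ly6c1 and Ly6c2 share 25.7% of the 50-base windows of the Ly6c1 transcript, so reads may have been shared between them, while Ly6a and Ly6e share none. Lynx1, a member of the same fold that modulates acetylcholine receptors, fell from 3.09 and 3.15 to 0.733 and 0.715 CPM. Of the remaining measured members, Psca had a log2 fold change of -0.77 and Plaur, the urokinase receptor, of -0.08.

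Gvin1, a very large GTPase induced by interferon, was lost in the same way. It had 8.76 and 8.58 CPM in E1KD SCR and 0.0340 and 0.0546 CPM in E1KD Platr18 KD, with 0.356 and 0.362 CPM under the empty vector, a log2 fold change of -3.21 (SE 0.0749, limma adjusted p = 2.9e-12). The coding gene RP23-454A11.1 lies near it on chromosome 7 (from 105895139 to 105953967, where Gvin1 begins at 106156556) and had 9.42 and 9.24 against 0.0205 and 0.0205 CPM. Whether the 2 genes share reads was not tested. Of 40 measured interferon-stimulated genes, Ly6e and Gvin1 were the 2 called lower, none was called higher, and the median log2 fold change was 0.15 against -0.02 over all compared genes. At an adjusted p under 0.05, 9 of the 40 were higher and 4 lower. Those higher included Ifit3, an antiviral RNA-binding protein, at 1.19 and 0.826 CPM in E1KD SCR and 2.68 and 2.84 CPM in E1KD Platr18 KD, and Samd9l, a growth and virus restriction factor, at 18.98 and 17.3 against 28.2 and 34.4 CPM. Among 22 genes of interferon ligands, receptors, sensors and signalling, Ikbke, a kinase that activates interferon regulatory factors, was called higher and Tmem173, which encodes the DNA sensor adaptor STING, lower. Ikbke had 4.45 and 4.13 CPM in the scrambled and 10.6 and 12.2 CPM in the silenced cells, and Tmem173 6.23 and 5.02 against 2.12 and 2.24 CPM. Without scrambled replicate 1, the log2 fold change of Tmem173 was -0.92 and it was not called. Of 19 genes of MHC class I antigen presentation, 6 were higher and none lower at an adjusted p under 0.05. The called one, Cd274 (PD-L1, the ligand that restrains T cells), rose from 1.62 and 1.76 to 6.95 and 8.30 CPM, a log2 fold change of 1.67 (SE 0.0977, limma adjusted p = 2.5e-08). H2-K1, a class I heavy chain, had 18.2 and 18.2 against 25.01 and 26.7 CPM.

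**Figure D2:**
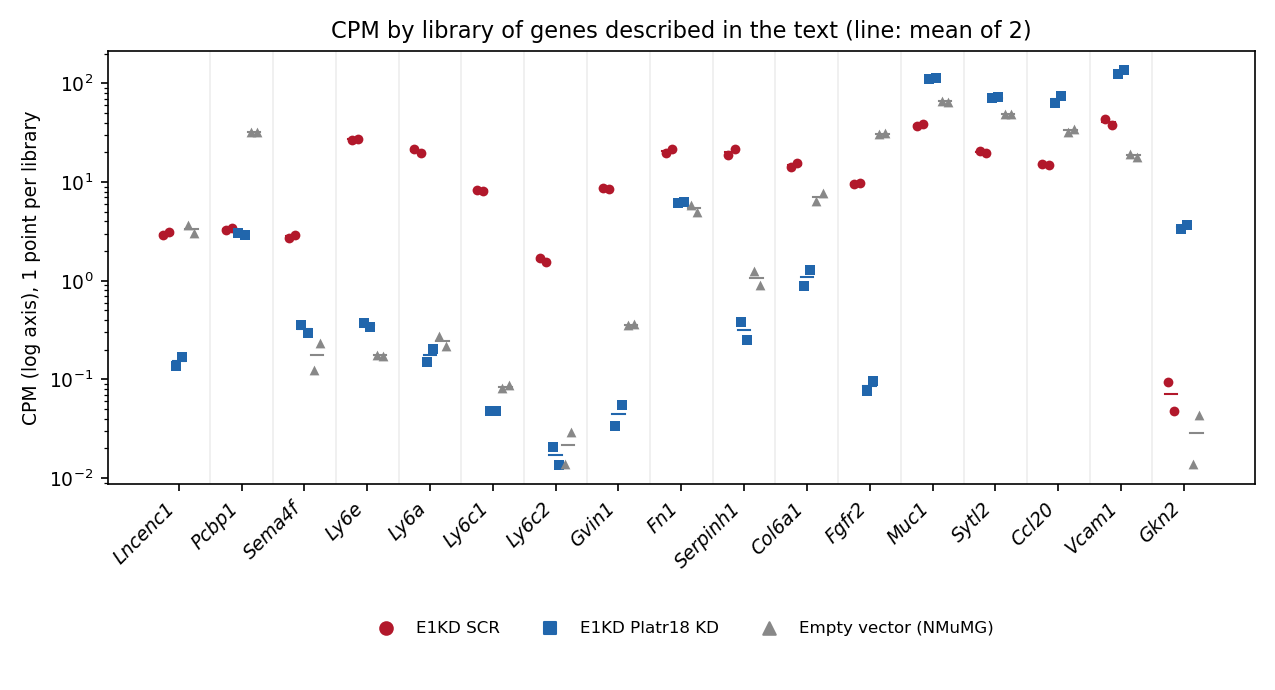
CPM (log axis) of 17 genes in the 2 libraries of E1KD SCR (red circles), E1KD Platr18 KD (blue squares) and NMuMG with an empty vector (grey triangles), each point a library and each line a mean of 2. The Ly6 genes, Gvin1 and Sema4f are high in E1KD SCR alone, Fgfr2 is lowest in E1KD Platr18 KD, and Muc1, Sytl2, Ccl20, Vcam1 and Gkn2 are highest there.

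Semaphorins and other guidance molecules steer growing axons, and Sema4f is the member of that family which the study followed. Sema4f (ENSMUSG00000000627.15, chromosome 6 from 82911885 to 82939769, reverse strand) had 2.69 and 2.94 CPM in E1KD SCR and 0.353 and 0.293 CPM in E1KD Platr18 KD. The silenced libraries were both low and close to the 0.123 and 0.232 CPM of the empty vector, with a log2 fold change of -1.53 (SE 0.109, limma adjusted p = 1.9e-07). Sema4f was the 1 called gene of 19 measured semaphorins, plexins and neuropilins, of which 7 were lower and 2 higher at an adjusted p under 0.05. The semaphorin receptor Nrp2 had 35.4 and 37.7 CPM in the scrambled and 18.8 and 17.4 CPM in the silenced cells, a log2 fold change of -0.98 that stayed short of the limit. Nrp1 had 65.8 and 67.4 against 43.9 and 43.0 CPM (-0.60 on the log2 scale), and of the 2 higher genes the ligand Sema3c had 82.8 and 82.7 against 99.7 and 99.9 CPM (0.27).

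Among 23 other axon guidance genes, 2 were called higher and 2 lower, and of the 19 at 1 CPM in all 4 libraries 2 higher and none lower. Epha5, an ephrin receptor, rose from 1.95 and 1.89 to 7.46 and 7.16 CPM (log2 fold change 1.51, SE 0.0551, limma adjusted p = 2.2e-10), and it was not detected with the empty vector. The Flrt proteins are ligands of Unc5 receptors and of latrophilins, and here 2 of them moved apart. Flrt3 rose from 29.2 and 26.4 to 74.8 and 76.5 CPM, 2.72-fold by means, while Flrt2 fell from 3.13 and 2.64 to 0.0205 and 0.0273 CPM. Robo1, the receptor of the Slit repellents, fell from 2.18 and 2.40 to 0.299 and 0.116 CPM (log2 fold change -1.45, SE 0.136). Of 11 genes of neurotrophic factors, their receptors and neuronal adhesion, Ncam1, the neural cell adhesion molecule, fell from 17.9 and 19.6 to 5.93 and 5.90 CPM and Cadm2, a synaptic adhesion molecule, rose from 0.731 and 0.588 to 2.97 and 2.95 CPM. Igsf11, an adhesion protein that the study names beside Sema4f, had 27.6 and 28.2 against 26.9 and 26.6 CPM. Its log2 fold change was -0.06 (SE 0.0866, limma adjusted p = 0.738), and it was 0.0017 with values rescaled to equal sums. With Platr18 overexpression (described further on) it had 6.27 and 6.07 CPM in clone 12 and 5.35 and 5.15 CPM in clone 16 beside 1.15 and 1.12 CPM with the empty vector, a log2 fold change of 1.65 (limma adjusted p = 1.4e-09). Tubb3, the neuronal tubulin, stayed under 0.09 CPM in all 4 libraries and was not tested.

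Genes of the synapse were added as a list after their values had been seen, so their count is a description. Of 21 measured scaffold, vesicle release and adhesion genes, 8 were called lower and Flrt3 higher, and of the 17 at 1 CPM in all 4 libraries 4 were called lower and 1 higher. Shank2, a scaffold under excitatory synapses that also binds transporters in epithelia, fell from 6.67 and 7.59 to 0.129 and 0.143 CPM, a log2 fold change of -2.84 (SE 0.0894, limma adjusted p = 4.5e-11). With the empty vector it was at 32.5 and 29.3 CPM, so the scrambled cells lay between the other groups. Of the synaptotagmins, a family of vesicle proteins, Syt7 fell from 3.64 and 4.03 to 0.686 and 0.940 CPM and Syt13 from 5.62 and 5.67 to 1.54 and 1.72 CPM. Rims2, which docks vesicles at release sites, had 2.67 and 2.78 against 0.346 and 0.2998 CPM, and Dbn1, an actin-binding protein of dendritic spines, 5.09 and 5.91 against 1.09 and 1.06 CPM. Rims2, Syt7 and Syt13 were at or below 0.0275 CPM with the empty vector, whereas Dbn1 was at 17.5 and 15.5 CPM there.

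Of 29 measured epithelial junction and identity genes none was called, but at an adjusted p under 0.05 13 were higher and 3 lower in E1KD Platr18 KD. Ocln, the tight junction protein occludin, had 17.5 and 17.2 CPM in E1KD SCR and 32.6 and 32.2 CPM in E1KD Platr18 KD, 1.87-fold by means (log2 fold change 0.86, SE 0.112, limma adjusted p = 7.4e-05). Cgn, the junction scaffold cingulin, had 51.2 and 52.4 against 86.0 and 86.7 CPM, and Lsr, a protein of tricellular junctions, 61.0 and 67.9 against 103 and 105 CPM. Cdh1 (E-cadherin) had 101 and 104 against 126 and 127 CPM, a log2 fold change of 0.31 with an adjusted p of 0.0504 from limma, and Tjp1 (ZO-1) had 149 and 147 against 144 and 143 CPM with -0.04, or 0.02 with values rescaled to equal sums. The member with the highest CPM, with no correction for length, was Krt18, which had 1235 and 1349 against 1074 and 1077 CPM (-0.26, limma adjusted p = 0.233). Going the other way were Dsg2, a desmosomal cadherin, at 18.1 and 19.3 against 12.7 and 13.01 CPM, Krt7 at 1.15 and 1.29 against 0.489 and 0.511 CPM, and Ppl.

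Of 18 measured mesenchymal and EMT genes, 2 were called lower, and at an adjusted p under 0.05 10 were lower and 1 higher. Fn1, the matrix protein fibronectin, had 19.6 and 21.8 CPM in the scrambled libraries and 6.13 and 6.27 CPM in the silenced libraries, which is near the 5.90 and 5.03 CPM of the empty vector. It was 3.34-fold lower, with a log2 fold change of -1.59 (SE 0.175, limma adjusted p = 1.5e-05). S100a4, a calcium-binding protein tied to motility, had 543 and 546 against 261 and 262 CPM, 2.08-fold lower, and its log2 fold change of -1.06 was -0.99 and under the limit with values rescaled to equal sums. Vimentin (Vim) had 619 and 684 against 394 and 388 CPM (-0.73, limma adjusted p = 2.7e-04), and the repressor Zeb1 had 24.9 and 24.3 against 16.2 and 16.9 CPM (-0.55). N-cadherin (Cdh2) had 87.4 and 85.0 against 101 and 95.5 CPM (0.18, SE 0.144, limma adjusted p = 0.457). Snai1 had 0.230 and 0.365 against 0.0748 and 0.116 CPM (-0.24, limma adjusted p = 0.0599). Being under 1 CPM in all 4 libraries, it is not among the compared genes, and the scale of CPM + 1 understates its change.

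Genes of the apical surface and of regulated secretion, a list added after its values had been seen, held 6 called higher and 1 lower of 19 measured, and 4 higher of the 16 at 1 CPM in all 4 libraries. Sytl2 and Rab27a, partners that tether secretory vesicles to the membrane, both rose. Sytl2 had 20.8 and 19.8 CPM in E1KD SCR and 70.3 and 72.5 CPM in E1KD Platr18 KD, 3.51-fold by means (log2 fold change 1.76, SE 0.0777, limma adjusted p = 1.3e-09). Rab27a had 0.338 and 0.270 against 1.54 and 1.74 CPM. Its log2 fold change of 1.02 was 0.98 without scrambled replicate 2 and 0.96 without silenced replicate 2, and it was then not called. Muc1, a mucin that coats apical membranes, rose 2.90-fold, from 37.3 and 39.2 to 109.8 and 112 CPM, and both silenced libraries were also above the 67.0 and 64.4 CPM of the empty vector. Vil1, which bundles the actin of microvilli, had 24.3 and 23.4 against 56.0 and 60.0 CPM, and Eps8l3, of the Eps8 family of actin regulators, 1.10 and 1.16 against 5.44 and 6.71 CPM. Podxl, the sialomucin podocalyxin, was the exception and fell from 5.48 and 5.35 to 0.326 and 0.313 CPM.

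Among 20 genes of the list of S100 proteins, annexins and secreted epithelial defence genes, 4 were called higher and 2 lower, and all of them but Gkn2 were at 1 CPM in all 4 libraries. Gkn2, a peptide of gastric mucus, was close to absent in E1KD SCR, at 0.0948 and 0.0478 CPM, and reached 3.38 and 3.66 CPM in E1KD Platr18 KD. This log2 fold change of 2.08 (SE 0.0420) had the smallest p of all genes (limma adjusted p = 1.2e-12). Muc1 is also on this list. Anxa10 rose from 4.44 and 4.35 to 12 and 11.6 CPM, and Clu, the chaperone clusterin, from 132 and 129 to 299 and 314 CPM. Anxa6, an annexin of endosomes, fell from 12.6 and 13.8 to 3.75 and 4.44 CPM and S100a16 from 9.69 and 10.5 to 2.97 and 2.91 CPM.

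Of 27 measured collagens, laminins and matricellular proteins, 4 were called lower and none higher, at an adjusted p under 0.05 12 were lower and 2 higher, and the median log2 fold change was -0.37. Of the 22 at 1 CPM in all 4 libraries, 1 was called, Col4a1. Col6a1, a chain of the microfibrillar collagen VI, fell 13.8-fold, from 14.4 and 15.5 to 0.889 and 1.27 CPM (log2 fold change -2.94, SE 0.125, limma adjusted p = 1.1e-09). Of chains that accompany collagen fibrils, Col5a1 fell from 2.22 and 2.26 to 0.0680 and 0.0205 CPM and Col12a1 from 2.02 and 1.70 to 0.312 and 0.388 CPM. Col4a1, a chain of basement membrane collagen, had 58.7 and 64.7 against 27.9 and 30.1 CPM. Its log2 fold change of -1.06 was -0.99 without scrambled replicate 2, and it was then not called. Thbs1, the adhesive protein thrombospondin, had 66.2 and 71.3 against 38.3 and 39.3 CPM, and the basement membrane linker Nid2 went the other way with 4.28 and 4.57 against 8.78 and 9.23 CPM.

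Serpinh1 encodes Hsp47, the chaperone that procollagen needs to fold in the endoplasmic reticulum, and it was among the largest losses. It had 18.7 and 21.7 CPM in E1KD SCR and 0.380 and 0.252 CPM in E1KD Platr18 KD. The empty vector libraries held 1.25 and 0.898 CPM, so the silenced cells were the lowest of the 3 groups (log2 fold change -4.01, SE 0.111, limma adjusted p = 1.7e-11). It belongs to the list of matrix proteases, plasminogen activators and inhibitors, in which 2 of 23 genes were called lower and 1 higher, and of the 19 at 1 CPM in all 4 libraries the higher one alone. The higher one was Mmp13, a collagenase, which rose 4.47-fold from 8.31 and 7.62 to 31.9 and 39.3 CPM. Mmp28 fell from 2.77 and 4.08 to 1.04 and 0.988 CPM, and without scrambled replicate 2 its log2 fold change went from -1.12 to -0.91 and it was not called. Of 13 integrins, Itgb7, a subunit of lymphocyte homing receptors, was called lower, at 8.38 and 9.59 against 3.37 and 2.57 CPM.

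The sulfated sugar chains of proteoglycans are built by a set of Golgi enzymes, and several of these were lower in E1KD Platr18 KD. The list was added after its values had been seen. Of 40 measured enzymes and core proteins, 7 were called lower and 1 higher, while the median log2 fold change was -0.03 and at an adjusted p under 0.05 10 were lower and 10 higher. Of the 35 at 1 CPM in all 4 libraries, 3 were called lower and 1 higher. Of the enzymes that sulfate chondroitin, Chst11 fell from 4.71 and 5.04 to 0.0544 and 0.0137 CPM and Chst15 from 12.5 and 13.4 to 1.32 and 1.40 CPM. Hs6st2, which sulfates heparan, fell from 4.53 and 5.31 to 0.0680 and 0.0614 CPM (log2 fold change -2.47, SE 0.0697, limma adjusted p = 1.9e-11). Chst1, a keratan sulfotransferase, had 5.41 and 5.18 against 0.306 and 0.341 CPM, and the heparan sulfate proteoglycan Gpc1 13.2 and 15.6 against 2.98 and 2.59 CPM. Chst11 and Hs6st2 had no read with the empty vector, and Chst1, Chst15 and Gpc1 were below 0.2 CPM there. Slc26a2, the sulfate transporter, was higher, at 191 and 181 against 381 and 382 CPM, and Dsel, a dermatan epimerase, had 20.4 and 19.6 against 38.3 and 39.9 CPM. Gxylt2, a xylosyltransferase that extends sugars on Notch, is in none of the lists and fell from 6.71 and 6.50 to 0.136 and 0.109 CPM.

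Signals of the TGFβ family drive EMT in NMuMG cells. Of 37 measured genes of the TGFβ and BMP pathway, 3 were called lower (2 of the 34 at 1 CPM in all 4 libraries) and none higher, and at an adjusted p under 0.05 16 were lower and 2 higher. Inhbb, the activin B subunit, fell from 5.64 and 6.08 to 0.407 and 0.450 CPM (log2 fold change -2.26, SE 0.0874, limma adjusted p = 4.0e-10). Pmepa1, a feedback inhibitor induced by TGFβ, was 2.56-fold lower, at 26.5 and 29.3 against 10.5 and 11.2 CPM, and Bmp7 3.08-fold lower, at 4.17 and 5.29 against 1.61 and 1.46 CPM. Smad7, another feedback inhibitor, had 9.64 and 10.7 against 5.88 and 6.21 CPM (-0.66). The ligand Tgfb1 had 3.53 and 4.21 against 3.41 and 3.36 CPM (-0.15, limma adjusted p = 0.413), whereas Tgfb2 had 3.38 and 3.37 against 1.59 and 1.46 CPM (-0.79). Fst, which traps activins, was higher, at 15.7 and 14.3 against 22.7 and 23.5 CPM.

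In the Wnt pathway none of 23 genes was called, but 13 were lower and 2 higher at an adjusted p under 0.05. Several of them are feedback targets of β-catenin: Znrf3, a ligase that removes Wnt receptors, had 27.7 and 27.5 CPM in the scrambled and 15.4 and 15.1 CPM in the silenced cells, and Axin2 had 1.99 and 2.14 against 0.808 and 0.940 CPM. The highest member, Axin1, had 51.0 and 52.1 against 47.1 and 47.7 CPM (-0.12, limma adjusted p = 0.441). Among 32 genes of EGF, FGF, PDGF and IGF signalling, 1 was called in each direction. Fgfr2, a receptor of fibroblast growth factors needed for mammary epithelium, had 9.64 and 9.76 CPM in E1KD SCR and 0.0763 and 0.0962 CPM in E1KD Platr18 KD. With the empty vector it had 30.6 and 31.4 CPM, so the scrambled cells already held less than NMuMG cells and the silenced cells almost none (log2 fold change -3.30, SE 0.107, limma adjusted p = 5.9e-11). Irs1, which couples insulin and IGF receptors to their kinases, rose from 0.582 and 0.826 to 3.58 and 4.11 CPM. Of 28 targets of YAP, TAZ and TEAD factors, Edn1, the peptide endothelin, was called lower, at 5.93 and 5.64 against 0.944 and 1.10 CPM, and 9 were lower and 1 higher at an adjusted p under 0.05. Of 28 AP-1 and immediate early genes none was called, and the highest, Klf6, had 96.2 and 95.5 against 85.9 and 86.3 CPM (-0.15).

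Of 34 measured chemokines, cytokines and their receptors, 4 were called lower and 1 higher, and of the 28 at 1 CPM in all 4 libraries 1 in each direction. Ccl20, a chemokine that epithelia release to attract dendritic cells and lymphocytes, rose 4.58-fold, from 15.1 and 14.98 to 62.6 and 75.0 CPM (log2 fold change 2.12, SE 0.120, limma adjusted p = 1.9e-08). Csf1, the growth factor of macrophages, was 2.15-fold lower, at 61.2 and 63.5 against 27.8 and 30.2 CPM. The chemokine Ccl9 fell from 3.59 and 3.02 to 0.204 and 0.130 CPM, Il11, a cytokine of fibrosis, from 1.15 and 1.16 to 0.0340 and 0.0750 CPM, and Lifr, the receptor of leukemia inhibitory factor, from 2.23 and 2.14 to 0.0137 and 0.0478 CPM. Of 21 genes of the NF-κB pathway and its targets, Vcam1, an adhesion molecule for leukocytes, was called higher, at 43.4 and 37.8 CPM in the scrambled and 125 and 135 CPM in the silenced cells, 3.20-fold by means. At an adjusted p under 0.05, 4 of these 21 genes were higher and 1 lower. The higher ones included Tnfaip3, the inhibitor A20, at 41.6 and 43.5 against 61.2 and 72.7 CPM. The lower one was Ptgs2, the inducible cyclooxygenase, at 45.3 and 46.3 against 27.6 and 26.1 CPM.

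Of 23 measured CDK inhibitors and p53 targets, 2 were called higher, and at an adjusted p under 0.05 12 were higher and none lower, beside 9.27% higher over all genes. Trp53inp1, a stress-induced regulator of p53, had 105 and 90.7 CPM in E1KD SCR and 234 and 235 CPM in E1KD Platr18 KD, 2.40-fold by means (log2 fold change 1.26, SE 0.0882, limma adjusted p = 1.6e-07). Bbc3, which encodes the cell death protein PUMA, had 2.30 and 2.67 against 6.65 and 6.65 CPM. Cdkn1a, the CDK inhibitor p21, had 43.3 and 47.0 against 66.8 and 66.8 CPM (0.56), and Mdm2, the ligase of p53, 114 and 111 against 158 and 147 CPM (0.44). None of 55 entries for cell cycle and DNA replication was called. Of these, 6 were lower and none higher at an adjusted p under 0.05. The share lower was near that of all compared genes, 11.1%, so that count does not set the list apart. By sign, however, 47 of the 55 were lower. The median log2 fold change was -0.17, against -0.02 over all compared genes. Among the 6 was the mitotic regulator Foxm1, at 52.1 and 57.2 against 39.2 and 37.5 CPM. The highest member, Ccnd1, had 777 and 842 against 875 and 825 CPM (0.07).

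Of 39 genes of cholesterol and fatty acid synthesis, none was called, and 12 were higher and 1 lower at an adjusted p under 0.05. Insig1, which holds the sterol sensor in the endoplasmic reticulum, had 51.8 and 48.4 against 98.9 and 98.5 CPM (0.97), and Scd2, the highest, 722 and 676 against 775 and 769.6 CPM (0.15, limma adjusted p = 0.22). Glycolysis and the hypoxia response held 1 called gene of 33, Pfkp, an isoform of phosphofructokinase. Pfkp was 4.20-fold lower, at 13.9 and 13.8 against 3.16 and 3.45 CPM. The rest of that list did not follow it. At an adjusted p under 0.05, 8 of the 33 were higher and 4 lower, beside 9.27% and 11.1% of all compared genes. The median log2 fold change of the list was 0.10. Among 37 genes of the ATF4 response and amino acid transport, the glutamine transporter Slc38a1 was called lower, at 25.4 and 26.1 against 10.4 and 10.4 CPM. Among 38 NRF2 targets and glutathione transferases, the aldose reductase Akr1b3 was called lower, at 18.6 and 21.2 against 9.47 and 9.30 CPM. Its log2 fold change of -1.01 did not reach 1 in size under any of the 3 rescalings (-0.95 to -0.997), or without scrambled replicate 2 (-0.92) or silenced replicate 2 (-0.99).

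Groups read from the annotation held no called gene. They were the 17 mitochondrially encoded genes (median log2 fold change 0.22), 76 cytosolic ribosomal protein genes (0.02), 77 snoRNA genes (-0.11) and 74 histone genes (-0.12). The highest mitochondrial RNA, mt-Rnr2, had 155556 and 145039 against 113874 and 114262 CPM (log2 fold change -0.40). As 14 of the 17 mitochondrially encoded genes had a fold change above 0, the lower mitochondrial share given above does not describe most of them. Rpl4 had a log2 fold change of -0.14, Hist2h2bb of -0.20 and Snora73a of 0.13. The list of Pcbp proteins and small RNA machinery also held none of 16, with Tnrc6a highest, at 80.6 and 78.9 against 71.5 and 68.8 CPM (-0.18). The 1 measured gene on the wider marker list of 24 genes of other cell types, Cd14, a receptor of bacterial lipid that epithelial lines can also make, had 80.4 and 86.2 against 79.6 and 83.6 CPM.

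**Figure D3:**
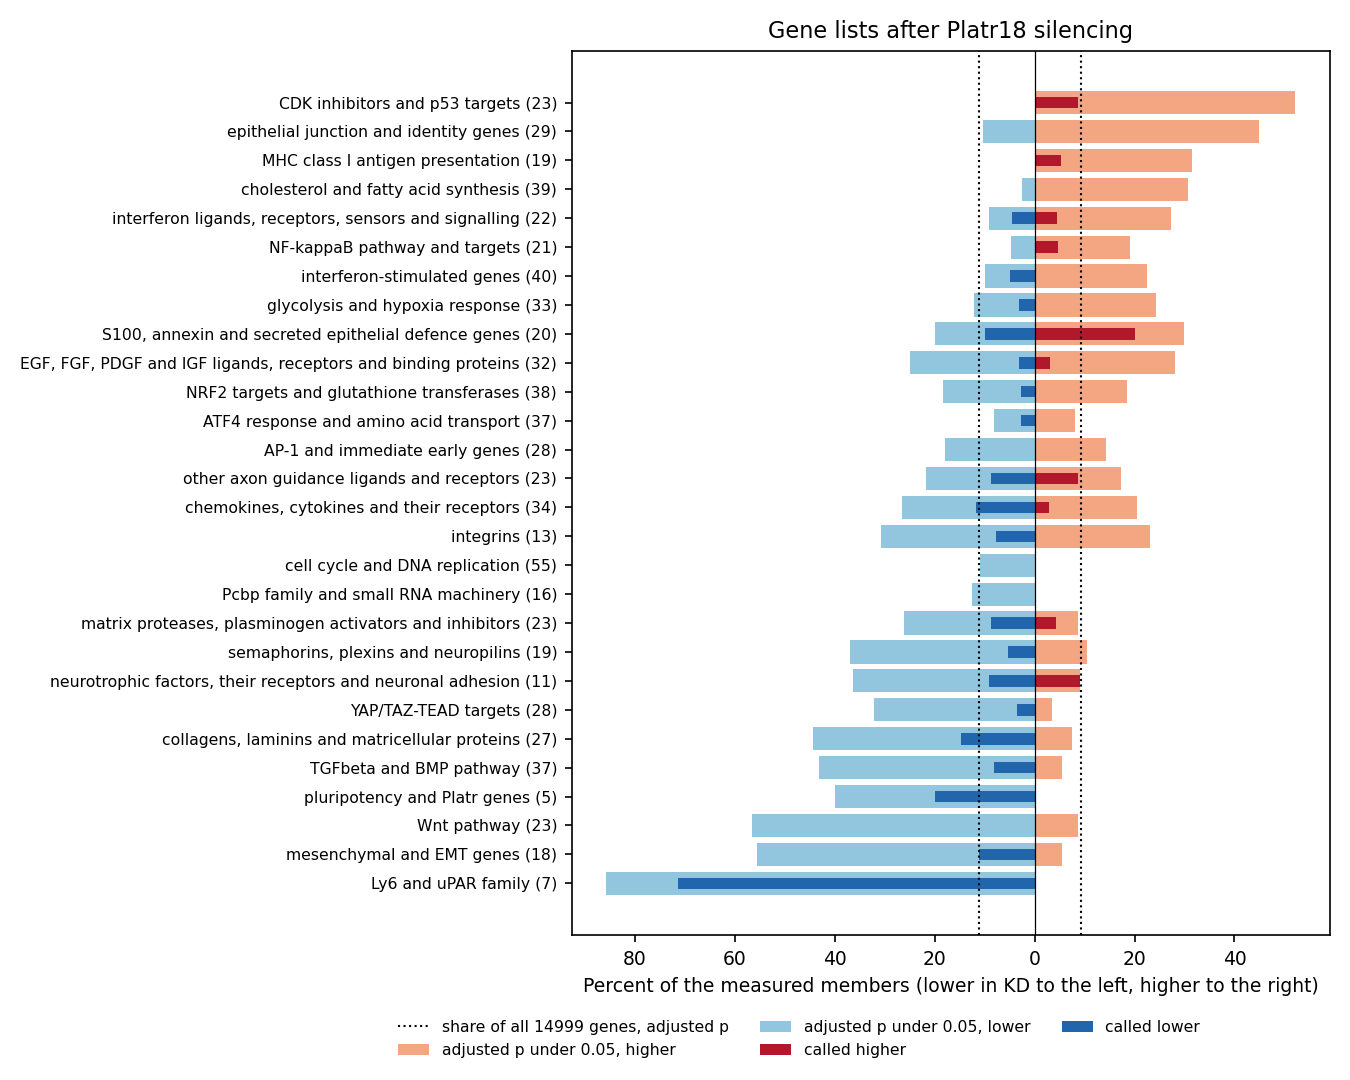
Percent of the measured members of each gene list (number of members in brackets) that were lower (left) or higher (right) in E1KD Platr18 KD, for 28 lists with at least 5 members. Pale bars are genes with an adjusted p under 0.05, dark bars are called genes, and dotted lines mark the pale share of all 14999 genes, 11.1% lower and 9.27% higher; the Ly6, EMT, Wnt and TGFβ lists extend left and the p53 and epithelial lists right.

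Of 420 measured long noncoding genes, 8 were called (1.90%, beside 1.68% of all compared genes), 3 higher and 5 lower. Beside Platr18, Platr14, another noncoding RNA of that name series, fell from 4.01 and 3.56 to 0.407 and 0.504 CPM (log2 fold change -1.72, SE 0.0927, limma adjusted p = 1.2e-08), with 0.137 and 0.101 CPM under the empty vector. It was the 1 called gene of 5 measured pluripotency and Platr genes. RP23-110C17.2 on chromosome 5 fell 2.67-fold, from 26.1 and 28.1 to 10.2 and 10.1 CPM. RP23-457B18.1, an antisense gene on chromosome 19, rose from 0.690 and 0.763 to 4.55 and 4.95 CPM, but whether reads were counted by strand is not given in the sources used here, so it cannot be told apart from its sense partner.

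No gene near Platr18 was called with it. Of 20 measured genes within 1 Mb, 3 were lower and 1 higher at an adjusted p under 0.05, beside 20.3% of all compared genes that passed it, and the largest change was that of Gcnt4, a glycosyltransferase gene, at 2.98 and 2.32 against 4.01 and 4.41 CPM (0.52). Enc1, the nearest measured coding gene, had 54.0 and 55.4 CPM in E1KD SCR and 51.8 and 53.4 CPM in E1KD Platr18 KD (-0.06, SE 0.0699). The pseudogene RP24-192J9.1, which lies inside Platr18 on the other strand, had 7.05 and 7.23 against 7.03 and 7.45 CPM, so it did not follow the loss of Platr18 reads. RP23-79J21.3 had the highest CPM of the neighbours, at 233 and 230.2 against 252 and 244 CPM.

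**Figure D4:**
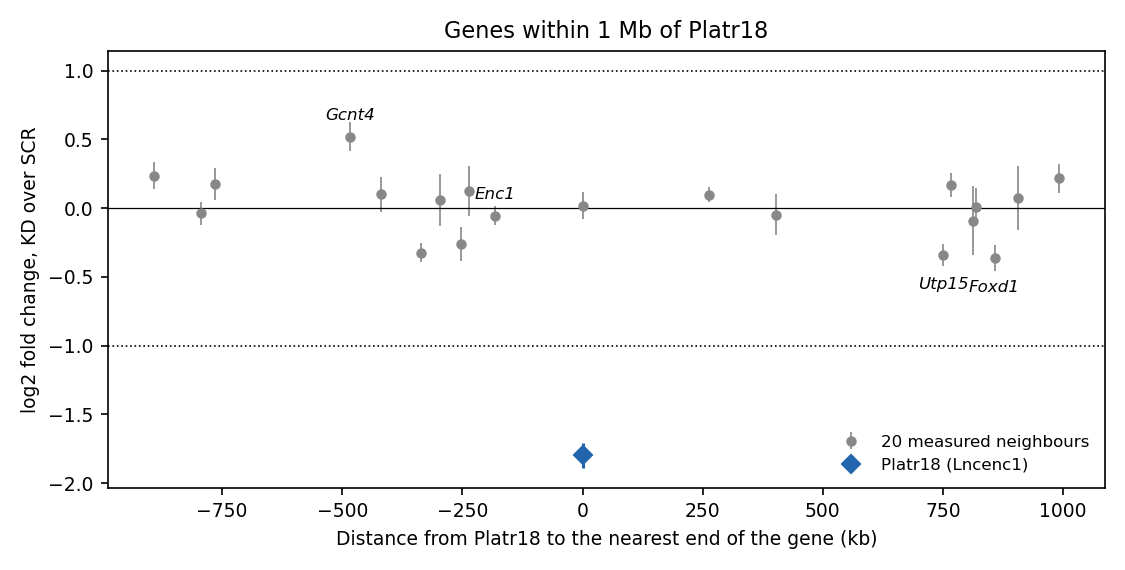
Log2 fold change of CPM + 1 (points, bars are standard errors) of 20 measured genes within 1 Mb of Platr18, against the distance in kb from Platr18 to the nearer end of the gene. Platr18 itself (blue diamond) lies at -1.80 and all neighbours lie between -0.36 and 0.52, inside the dotted lines at -1 and 1.

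Other large changes were in genes of none of the lists. Arl6ip1, an endoplasmic reticulum shaping protein, fell 4.57-fold, from 72.3 and 69.5 to 15.2 and 15.8 CPM (log2 fold change -2.12, SE 0.0634, limma adjusted p = 2.8e-11), with 90.6 and 92.4 CPM under the empty vector. Sptssb, a subunit of the enzyme that begins sphingolipid synthesis, rose 5.50-fold from 1.10 and 0.969 to 5.95 and 5.41 CPM, and Serinc5, a membrane protein that restricts retroviruses, 3.67-fold from 5.02 and 4.64 to 16.7 and 18.7 CPM. Ms4a4b, a membrane protein best known in T cells, rose 6.77-fold, from 1.81 and 1.43 to 10.1 and 11.9 CPM, still below the 42.9 and 42.4 CPM of the empty vector. Crisp1, a secreted protein of the epididymis, fell 16.3-fold, from 19.2 and 16.9 to 1.06 and 1.16 CPM, with 22.2 and 19.8 CPM under the empty vector. RP23-67J22.4 rose from 0.257 and 0.191 to 3.69 and 4.88 CPM. On the X chromosome the lymphocyte-regulated genes Xlr3a, Xlr3b and Xlr3c fell, Xlr3a from 6.98 and 6.45 to 1.03 and 0.817 CPM, Xlr3b from 3.42 and 2.99 to 0.251 and 0.313 CPM and Xlr3c from 3.32 and 3.16 to 0.272 and 0.266 CPM. They are near copies, with 43.0% of 50-base windows shared between Xlr3a and Xlr3b, so they may be fewer than 3 independent changes, and this list, like 3 others named above, was added after the values had been seen. It has 6 measured members, of which 4 were called lower, the other being Rhox5, a homeobox gene counted here on a patch of the assembly, at 26.96 and 24.7 against 9.60 and 9.59 CPM. Of the 2 members at 1 CPM in all 4 libraries, Rhox5 was the 1 called. The Xlr3 genes entered through the E1KD SCR libraries in which they were high, so the count is fixed in part by the filter.

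Overexpression of Platr18 gives a comparison that shares no library with the silencing. NMuMG clones 12 and 16, which overexpress Platr18 and are not silenced for hnRNP E1, were set against NMuMG with an empty vector, with 2 libraries each. The mean of the clones called 189 of the 14999 genes (1.26%), 62 higher and 127 lower. Of these, 49 were also called after silencing, which is 19.4% of the genes called after silencing and 25.9% of those called with overexpression. The directions were opposite for 30 genes and the same for 19. The 30 include Platr18, whose directions the shRNA and the vector set, and 29 other genes. Of the 30, 15 were lower after silencing and 15 higher. The largest adjusted p of the difference between both effects was 1.2e-06 from limma. Genes called in both comparisons with opposite signs must differ in this way, so that p adds no support.

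Ms4a4b, which had the largest increase after silencing, had log2 fold changes of 2.19 after silencing and -1.81 with overexpression. Platr18 itself had 8.51 with overexpression, with 3092 and 3096 CPM in clone 12 and 813 and 819.8 CPM in clone 16. Sema4f had 2.66, from 0.123 and 0.232 CPM with the empty vector to 2.42 and 2.91 CPM in clone 12 and 13.5 and 14.97 CPM in clone 16. Irs1, higher after silencing, was lower with overexpression by a log2 fold change of -3.60 (no read in clone 12, 0.0971 and 0.140 CPM in clone 16 and 12.8 and 10.9 CPM with the empty vector). Sult1d1, a sulfotransferase of small molecules, and Nckap5 rose after silencing (1.45 and 1.49) and were lower with overexpression (-2.19 and -1.45). Gvin1 and RP23-454A11.1 had 1.68 and 1.73, but this mean hid a split between the clones. Gvin1 was at 17.7 and 17.3 CPM in clone 12 and at 0.0278 and 0.0141 CPM in clone 16, so clone 12 alone was above the empty vector. Ly6a also divided, with 8.73 and 8.34 CPM in clone 12 and 0.0555 and 0.0839 CPM in clone 16. In 25 of the 29 genes other than Platr18 both clones lay on the side opposite to the silencing, and in 10 both clones were called. Fn1 was among these, with log2 fold changes of 1.11 in clone 12 and 1.045 in clone 16.

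The 19 genes that moved the same way were lower in both comparisons in 17 cases and higher in 2. Rhox5 is among them with 2 entries, on the X chromosome and on a patch of the assembly, which leaves 18 distinct genes, 16 of them lower. In 5 of the 19 entries, Anxa6, Fam20c, Ano3 and both of Rhox5, the clones had opposite signs. Serpinh1 had -4.01 after silencing and -1.05 with overexpression, Robo1 -1.45 and -1.496, Bmp7 -1.17 and -1.53, and the water channel Aqp1 -2.59 and -2.60. For Serpinh1 no read was counted in clones 12 and 16, beside 1.25 and 0.898 CPM with the empty vector. Its -1.05 is therefore the largest decrease that the scale of CPM + 1 allows from that level. Mmp13 was higher in both, with 2.02 and 1.40. Ly6e, with the largest loss after silencing, had -0.08 with overexpression (limma adjusted p = 0.509), and Gkn2 had -0.04 (limma adjusted p = 0.537).

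**Figure D5:**
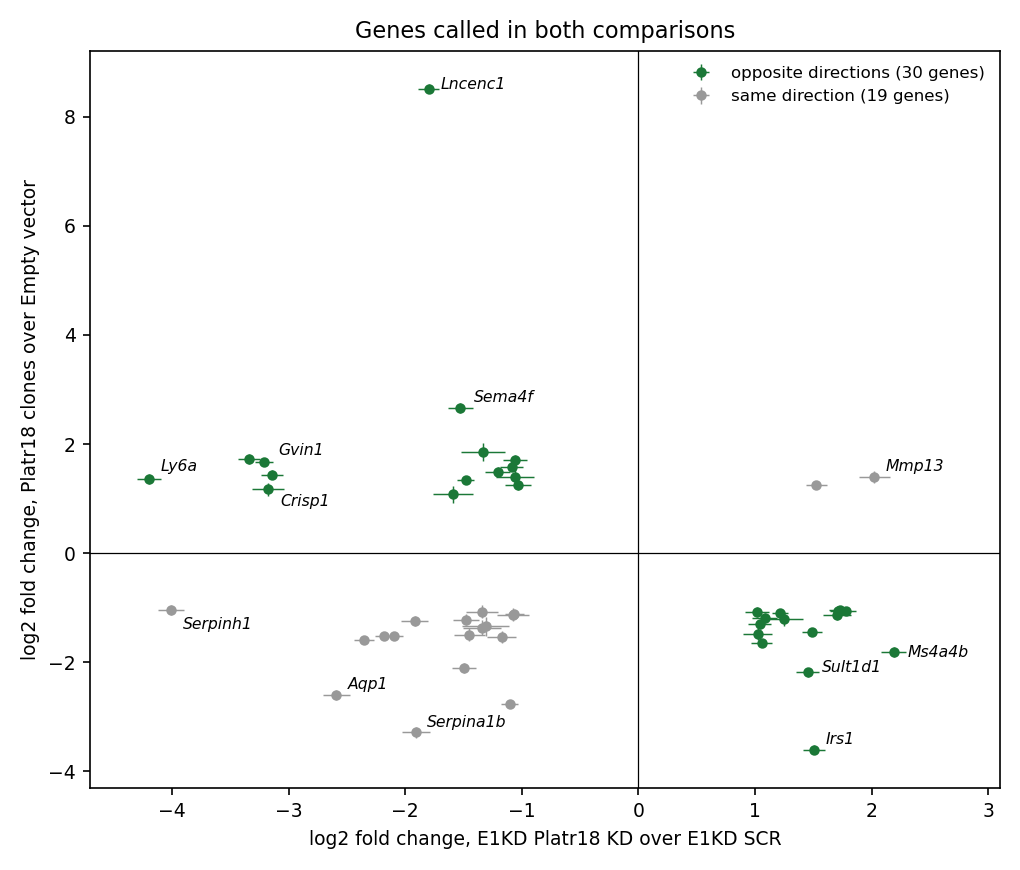
Log2 fold changes with standard errors of the 49 genes called in both comparisons, after Platr18 silencing in E1KD cells (x axis) and with Platr18 overexpression in NMuMG cells (y axis). The 30 green genes changed in opposite directions, with Platr18 (Lncenc1) at the top and Irs1 at the bottom right, and the 19 grey genes in the same direction.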

How the data were processed

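NMuMG cells were sequenced on an Illumina HiSeq2500 by the authors, who aligned reads with Bowtie2 and quantified them in Partek. The submitters' processing notes list Bowtie2 2.2.5 and GRCm38.p6. The deposited values are CPM with a small offset, whose sums stay under 1e6, so they were used as given and no count model was fitted. The authors' gene specific analysis in Partek was not rerun. All 20 libraries (10 groups of 2) entered limma 3.58.1 in R 4.3.3 on log2(CPM + 1) with a trend, for the 17106 genes that reached 1 CPM in 2 or more libraries, and p-values were adjusted by Benjamini-Hochberg over these. Levels are compared only within the 10 libraries of the same kind. Libraries of the same number are not paired (correlation of deviations 0.06 over 17106 genes). No sample column was left out.

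The gene sets and 29 lists were chosen with earlier results of these data known, and 4 lists, the promoters and the motifs after the values were seen. Named were Platr18, Pcbp1 and genes the study names, the 8 called genes of smallest p and the 4 of largest fold change in each direction, the 4 long noncoding genes of smallest p, up to 5 called members of each list or, with none called, the member of highest CPM, and up to 8 genes that changed in opposite directions with overexpression. The other genes named were chosen after their values were seen. Alternatives were other pseudocounts, filters, scalings, sets of libraries, a replicate block, another call rule and leaving out each library.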

Additional observations from a re-analysis of the deposited data

Results flagged for a closer look

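Clones 12 and 16 overexpress the same RNA, yet their effects, each against the empty vector, differed by at least 1 on the log2 scale in 6 of the 8 named genes that changed in opposite directions with silencing and overexpression. Each difference was tested as a contrast of the clones. The level of Platr18 itself was higher in clone 12 by a log2 difference of 1.92 (limma adjusted p = 1.1e-09). Gvin1 and RP23-454A11.1 differed the most, by 4.18 and 4.26, and both lay above the empty vector in clone 12 and below it in clone 16. Sema4f differed by -2.05 and was higher in clone 16, the clone with less Platr18. Ms4a4b and Sult1d1 differed by -1.60 and -2.003 and were lower in clone 12. Nckap5 differed by -0.93 (limma adjusted p = 1.3e-06), short of that limit. Over all 30 genes with opposite directions, 16 differed between the clones by the call rule. The share of all compared genes that differed in this way is not given here. The 30 were also picked in part by their change in these clones, so whether 16 is many cannot be said. A clone is 1 isolate, so the amount of Platr18 and other differences between the clones cannot be told apart.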

How the results depend on the processing

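Platr18 and Sema4f kept their direction under each alternative that gave a value, and Pcbp1 was called under none. With a pseudocount of 5 the log2 fold changes of Platr18 and Sema4f were -0.64 and -0.55, and with a filter of a mean of at least 5 CPM neither was tested. Against 252 genes called after silencing, 419 were called with a pseudocount of 0.1 and 63 with 5, which changes the weight of low values, 95 with that filter and 129 among genes at 1 CPM in all 4 libraries, an alternative chosen after seeing the data. Against 50 called members of the lists there were 21 with a pseudocount of 5, 25 with the filter and 26 among genes at 1 CPM in all 4 libraries. Against 30 genes with opposite directions there were 75 with a pseudocount of 0.1, 5 with 5 and 11 with the filter. This last result could not be given from the 4 silencing libraries alone, which hold no empty vector. Leaving out a library gave 236 to 264 called genes, the 3 rescalings 254 to 262, and the fit with a replicate block 252, with no other call changed. For 96 other named genes, 1236 values kept direction and call, 55 were no longer called and 1 was newly called, and 44 of the 55 were with a pseudocount of 5. Genes near 0 changed sign: Igsf11, Tjp1 and Cd14 to 0.0017, 0.021 and 0.034 with equal sums, and Cd14 to 0.0037 by median-of-ratios. Leaving out a library, Cd14 ranged from -0.078 (without scrambled replicate 1) to 0.020 (without scrambled replicate 2) and was 0.0055 without silenced replicate 1, and Snora73a ranged from -0.079 (without scrambled replicate 1) to 0.33 (without scrambled replicate 2). The cause was not tested. With 2 libraries a group, depth limits genes under about 0.02 CPM in the silenced cells, where 3 reads or fewer were counted.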
